A study of Mus musculus with 4 samples.

Results

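The Tmprss11 genes encode airway and squamous serine proteases that sit in the cell membrane. The members were chosen by name as Tmprss11a, Tmprss11bnl, Tmprss11d, Tmprss11e, Tmprss11f and Tmprss11g, and all 6 were found among the 19938 genes of the table. Tmprss11bnl is listed there under its current symbol Tmprss11b, to which it was matched through the gene's RefSeq synonyms, and is called Tmprss11b below. Each member had 1 probe set, paired with that gene alone. The choice was made with results of these arrays known, so the values below are descriptions with no test.

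The series holds 4 arrays of total RNA from nasal mucosa (septum and turbinates) of 8-week-old mice, with 1 array in each group. Wild-type mice and mice labelled Duox2-/-, both with strain C56BL/6 in the labels, received either PBS or flagellin at 5 ug/ml, given as 25 ul per nostril, for 4 h. Duox2 is an epithelial NADPH oxidase that releases hydrogen peroxide, and flagellin is the bacterial flagellar protein sensed by a Toll-like receptor. Whether an array holds 1 mouse or several, and how the Duox2 allele was made, are not given in the sources used here. With no replicates, the number of arrays limits the precision of every value, and no difference could be set against a spread between animals. Fewer cells of a type and less RNA per cell cannot be told apart in such tissue RNA.

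Type II transmembrane serine proteases of this family have a short cytoplasmic end, a membrane anchor, a SEA domain and a trypsin-like catalytic domain outside the cell. Tmprss11d is the mouse counterpart of human airway trypsin-like protease, an enzyme known to cleave viral glycoproteins and protease-activated receptor PAR2. The genes are known from stratified squamous and airway epithelium, and they lie side by side in 1 cluster.

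Duox2, the targeted gene, had log2 values of 4.95 (PBS) and 5.12 (flagellin) in wild type, and of 5.23 (PBS) and 5.50 (flagellin) in the arrays labelled Duox2-/-. It was not lower in the latter, which are therefore named by their label throughout. In every array Duox2 lay below 6.52, the median of all values. It was thus dim, and a loss of its RNA might hardly show. These values therefore cannot decide whether the label holds. Array medians lay between 6.48 and 6.56. The median of all values, 6.52, is used below as a rough mark of brightness, since the table gives no background level.

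Tmprss11g and Tmprss11a had the widest ranges over the 4 arrays, Tmprss11b and Tmprss11d a narrower one, and Tmprss11e and Tmprss11f varied least. Tmprss11g, also known as Desc4, had RMA values on the log2 scale of 7.11 and 8.21 in wild type under PBS and flagellin, and of 5.46 and 4.49 under PBS and flagellin with the label Duox2-/-. Both wild-type arrays were above both arrays labelled Duox2-/-, and flagellin went with the highest value in one genotype and with the lowest in the other. In the same order, 61.8%, 80.8%, 28.2% and 15.0% of an array's probe sets were at or below it. Tmprss11a had values of 6.06, 6.86, 4.03 and 3.99 in that order, with 42.4%, 57.0%, 10.7% and 10.6% of probe sets at or below it. Its values in the arrays labelled Duox2-/- were close to the low end of the array scale, where differences can be compressed.

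Tmprss11b had values of 7.45, 7.99, 7.06 and 6.92, and was the only member above 6.52 in all 4 arrays. Tmprss11d, the counterpart of human airway trypsin-like protease, had 5.59, 6.20, 5.14 and 5.17 and stayed below that level in all of them. In both genes the wild-type flagellin array was highest and the wild-type PBS array second, with the 2 arrays labelled Duox2-/- within 0.14 and 0.03 of each other. Tmprss11e, known as DESC1, had 4.20, 4.83, 4.73 and 4.84, so that only the wild-type PBS array stood lower. Tmprss11f had 3.62, 3.62, 3.79 and 3.91, a range of 0.29. Tmprss11c, a gene of the same cluster that is not among the members, had 3.67, 3.76, 3.87 and 3.99. In all, 3 of 6 members reached 6.52 in at least 1 array (Tmprss11a, Tmprss11b and Tmprss11g). The other 3 were dim throughout, and the size of their differences is less certain.

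**Figure D1:**
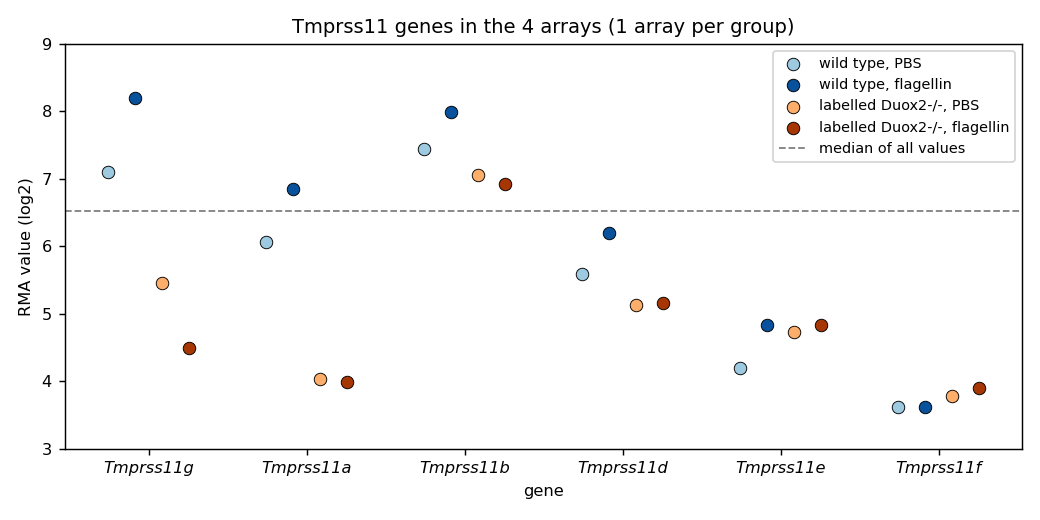
RMA values (log2, vertical axis) of the 6 genes in the 4 arrays; each point is 1 array and the dashed line is the median of all values, 6.52. Tmprss11g and Tmprss11a separate by genotype label, at 7.11 and 8.21 against 5.46 and 4.49 for Tmprss11g, while Tmprss11f spans 0.29.

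The RefSeq promoter table (GRCm38.p6) holds 5 of the 6 members, without Tmprss11e, and Tmprss11c. Shown are the 250 bases before the annotated start site of the 4 members that were at least 2-fold lower in the flagellin array labelled Duox2-/-, so that their upstream sequences can be set side by side. All lie on the minus strand of chromosome 5 and are written 5′ to 3′ along the gene. Tmprss11g is at chr5:86518601-86518850, Tmprss11a at chr5:86468991-86469240, Tmprss11b at chr5:86676299-86676548 and Tmprss11d at chr5:86373388-86373637. Capitals mark matches to the motifs searched.
Tmprss11g: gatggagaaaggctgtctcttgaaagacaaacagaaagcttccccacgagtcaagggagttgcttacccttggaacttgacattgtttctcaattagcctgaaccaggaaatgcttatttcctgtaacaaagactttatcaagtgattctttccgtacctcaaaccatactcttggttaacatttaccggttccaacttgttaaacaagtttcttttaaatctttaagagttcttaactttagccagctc
Tmprss11a: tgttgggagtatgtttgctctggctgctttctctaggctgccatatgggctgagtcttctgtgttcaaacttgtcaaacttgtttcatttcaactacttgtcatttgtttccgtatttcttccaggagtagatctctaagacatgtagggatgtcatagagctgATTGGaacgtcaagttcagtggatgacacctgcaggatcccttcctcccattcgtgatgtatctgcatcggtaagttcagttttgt
Tmprss11b: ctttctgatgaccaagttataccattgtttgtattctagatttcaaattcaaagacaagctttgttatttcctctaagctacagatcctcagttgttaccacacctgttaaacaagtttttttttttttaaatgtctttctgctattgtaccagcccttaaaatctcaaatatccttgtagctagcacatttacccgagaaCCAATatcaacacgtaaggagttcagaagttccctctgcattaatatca
Tmprss11d: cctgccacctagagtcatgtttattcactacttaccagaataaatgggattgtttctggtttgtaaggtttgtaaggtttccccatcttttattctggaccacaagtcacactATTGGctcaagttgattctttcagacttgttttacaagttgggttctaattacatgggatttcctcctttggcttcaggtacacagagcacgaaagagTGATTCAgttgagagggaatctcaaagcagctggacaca

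Searched on both strands were 6 motifs: the TATA box TATAAA, the AP-1 site TGANTCA, the Grainyhead-like site AACCGGTT, the GC box GGGCGG, the CCAAT box and the ETS site GGAAGT. No matches overlapped. CCAAT, read on either strand, was in the windows of Tmprss11a, Tmprss11b, Tmprss11c, Tmprss11d and Tmprss11f and not in that of Tmprss11g, and 33.8% of the 32851 promoter windows hold it. TGANTCA was in Tmprss11d and Tmprss11f, against 6.75% of all windows. Tmprss11d was lower in the arrays labelled Duox2-/- and Tmprss11f was not. Since Tmprss11f was dim in every array, where a lower value could hardly show, their patterns cannot be compared. The other 4 motifs had no exact match in any Tmprss11 window. Near matches were not counted, such as taccggtt in Tmprss11g, which differs from AACCGGTT in its first letter. Exact AACCGGTT is rare, so its absence says little. The shares over all windows were 12.4% for TATAAA, 0.116% for AACCGGTT, 32.7% for GGGCGG and 19.7% for GGAAGT. The GC content of the 4 printed windows was 38.8%, 43.6%, 34.4% and 41.2%, in the order shown.

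Comparing the flagellin arrays between the genotype labels asks how the tissue labelled Duox2-/- stood after the bacterial stimulus. Tmprss11g was 13.1-fold lower in the array labelled Duox2-/- (log2 difference -3.71), the lowest of all 19938 genes. Tmprss11a was 7.28-fold lower (-2.86), with 4 genes below it. Tmprss11b was 2.09-fold lower (-1.06) and Tmprss11d 2.05-fold lower (-1.04), both just past the 2-fold size used for counting. Tmprss11e was at 0.01 and Tmprss11f at 0.29. Thus 4 of 6 members were at least 2-fold lower and 0 at least 2-fold higher, where 1.18% of all genes were at least 2-fold lower and 0.476% higher. The median over the members was -1.05 and that over all genes 0.01. Tmprss11b was at -0.98 after cyclic loess, which left 3 of 6 past 2-fold. Tmprss11e ranged from -0.28 to 0.01 over the scalings tried, so it has no settled direction. Over all genes, 95 were 2-fold higher and 236 lower as deposited, and 51 and 262 after cyclic loess.

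The PBS arrays show how the genotype labels differed without flagellin. The same pair led: Tmprss11a was 4.08-fold lower in the array labelled Duox2-/- (-2.03), with 1 gene below it, and Tmprss11g was 3.13-fold lower (-1.65), with rank 7 from the lowest. Tmprss11d was at -0.45 and Tmprss11b at -0.38, short of 2-fold. Tmprss11e was at 0.54 and Tmprss11f at 0.16, both dim. So 2 of 6 members were at least 2-fold lower and 0 higher, against 0.226% and 1.34% of all genes. The member median was -0.42, that over all genes 0.04. Both Tmprss11a and Tmprss11g were past 2-fold under either treatment, with the larger difference in the flagellin arrays. The comparisons share arrays and are not independent of each other.

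The wild-type pair of arrays addresses what flagellin shifts in normal mucosa. Tmprss11g was 2.14-fold higher after flagellin (log2 difference 1.10) and was the only member past 2-fold. Tmprss11a was at 0.80, Tmprss11e at 0.63, Tmprss11d at 0.62 and Tmprss11b at 0.54, and Tmprss11f was at 0.00. The count of 1 of 6 at least 2-fold higher and 0 lower stands beside 0.838% and 0.0552% of all genes. The member median was 0.62 and that of all genes 0.01. At a size of 1.5-fold, 4 of 6 members were higher, against 2.66% of all genes.

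In the arrays labelled Duox2-/- the same comparison gave a median of -0.01 over the members. Tmprss11g was at -0.97 (1.95-fold lower), just short of 2-fold, and reached -1.01 after cyclic loess. Tmprss11b was at -0.14, Tmprss11a at -0.04, Tmprss11d at 0.03, Tmprss11e at 0.10 and Tmprss11f at 0.12. Hence 0 of 6 were past 2-fold either way, and 0.221% and 0.466% of all genes were higher and lower. At 1.5-fold 1 of 6 was lower, against 2.63% of all genes. Since 1 array stands for each group and no count model or test applies, the 0 at 2-fold is a count by size only. The signs of Tmprss11d here and of the member median turned between scalings, over ranges of -0.07 to 0.03 and -0.07 to 0.00.

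The difference between the responses, wild type minus the arrays labelled Duox2-/-, was 2.06 for Tmprss11g, a 4.18-fold ratio that ranked 26 from the highest. It was 0.83 for Tmprss11a, 0.68 for Tmprss11b, 0.59 for Tmprss11d, 0.53 for Tmprss11e and -0.13 for Tmprss11f. Of the members 1 of 6 was at least 2-fold above 0 and 0 below, against 1.38% and 0.211% of all genes. At 1.5-fold 4 of 6 were above 0, against 5.52%. The median was 0.63 over the members and 0.02 over all genes. For Tmprss11e the wild-type PBS value stood apart at 4.20, below 3 values between 4.73 and 4.84. With 1 array a group the difference between responses could not be tested.

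**Figure D2:**
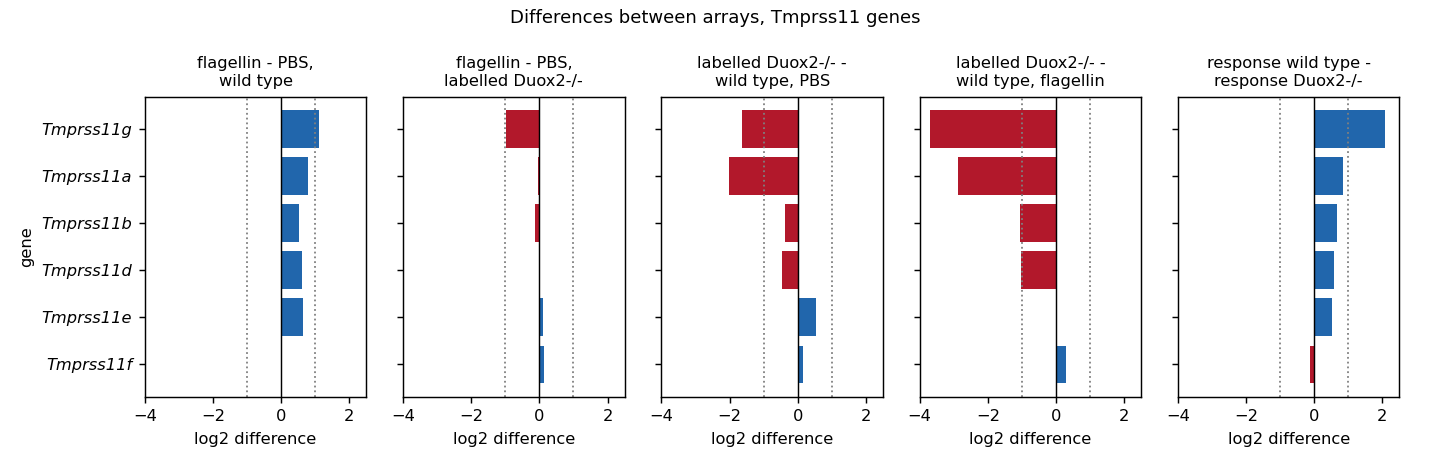
Log2 differences (horizontal axes) of the 6 genes in the 5 comparisons; bars start at 0 and dotted lines mark 2-fold. The longest bars are those of Tmprss11g (-3.71) and Tmprss11a (-2.86) in the flagellin arrays, and Tmprss11g has responses of opposite sign, 1.10 and -0.97.

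The cluster order in the RefSeq annotation (GRCm38.p6) is Tmprss11c, Tmprss11d, Tmprss11a, Tmprss11g, Tmprss11f, Tmprss11b and Tmprss11e. No source used here gives the build behind the probe sets, and only the order is used. The 2 genes with the largest genotype differences, Tmprss11a and Tmprss11g, are neighbours, with Tmprss11d on one side and Tmprss11f on the other. Tmprss11f lies between Tmprss11g and Tmprss11b, both lower in the flagellin array labelled Duox2-/-, and did not show their difference. It was dim in all 4 arrays (3.62 to 3.91), so a lower value could hardly show. Beyond the cluster, Uba6, which encodes a ubiquitin-activating enzyme, was at -0.15 in the PBS and -0.74 in the flagellin arrays. Ythdc1, a nuclear reader of methylated RNA, was at 0.04 and -0.27 in the same comparisons. Gnrhr, the receptor of gonadotropin-releasing hormone, was at 0.16 and 0.17, and the glucuronosyltransferase gene Ugt2b34 at 0.03 and 0.35. None of these 4 flanking genes was past 2-fold.

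**Figure D3:**
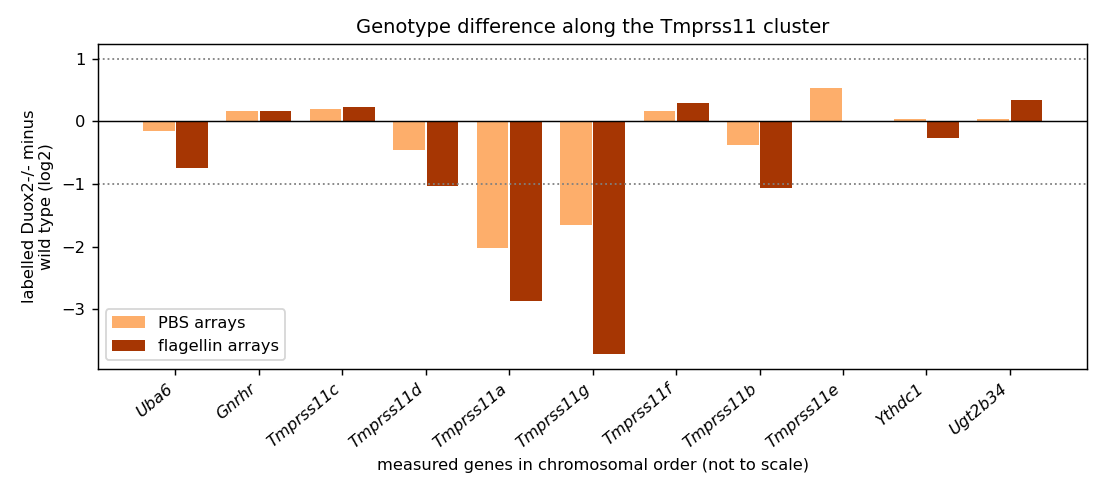
Genotype difference (array labelled Duox2-/- minus wild type, log2) of the measured genes in chromosomal order, not to scale, in the PBS and flagellin arrays. Tmprss11a (-2.03 and -2.86) and Tmprss11g (-1.65 and -3.71) stand beside Tmprss11f, which is above 0 in both (0.16 and 0.29). Tmprss11f is dim in every array, so a lower value could hardly show.

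Squamous epithelial markers were also lower in the flagellin array labelled Duox2-/-. The suprabasal squamous list covers keratins, cornified envelope proteins and desmosome genes. Of its 26 matched genes 13 were at least 2-fold lower in that array and 0 higher, against 1.18% and 0.476% of all genes. The list median was -0.86, beside -1.05 for the Tmprss11 genes. Krt6b was at -3.66, Krt1 at -3.22, Krt6a at -2.46 and Sprr1a, a cornified envelope precursor gene, at -2.43. In the PBS arrays 4 of 26 were at least 2-fold lower, against 0.226% of all genes, and the median was -0.07. Tmprss11a and Tmprss11g were past 3-fold lower there. The mean log2 level of the list was 6.54 and 7.12 in wild type under PBS and flagellin, and 6.37 and 6.13 under the same treatments with the label Duox2-/-, ranked as for Tmprss11g. The lowest value of any marker was 4.48 (Krt16), and RMA values have no 0.

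The list was not uniform. Of its 26 genes 7 were above 0 in the flagellin comparison, with Krt16 at 0.87. In wild type, 6 of 26 were at least 2-fold higher after flagellin, against 0.838% of all genes. Krt1 was at 2.04, Sprr1a at 1.08 and Krt6b at 1.22, and the median was 0.36. In the arrays labelled Duox2-/- 1 of 26 was at least 2-fold lower (Krt6b at -1.34) and 0 were higher, against 0.466% and 0.221% of all genes. The median was -0.14.

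Of 11 basal epithelial markers 10 were below 0 and 4 were at least 2-fold lower in the flagellin array labelled Duox2-/-. The shares over all genes were 49.3% and 1.18%. All 11 markers reached the median of all values in at least 1 array. Among all genes that did so the shares were 66.8% and 1.65%, with a median difference of -0.12. The median of the basal markers was -0.64. The 4 were the keratin genes Krt5 (-2.29), Krt15 (-1.80) and Krt14 (-1.36) and the desmosomal gene Dsg3 (-2.14). In the PBS arrays all 11 were below 0, with a median of -0.27. Of all genes 43.6% were below 0 in that comparison. Of genes reaching the median of all values 57.7% were, with a median difference of -0.04. Only Krt5 passed 2-fold there at -1.02, a count of 0 or 1 depending on the scaling. The mean log2 level of the basal list was 8.09, 8.18, 7.68 and 7.29 in the order of arrays used above. How far the amount of squamous and basal epithelium in each sample bears on the Tmprss11 values was not tested.

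Markers of the other airway cells differed less between the flagellin arrays. Ciliated markers had a median of -0.19 and olfactory neuron markers 0.16, each with 0 of 8 past 2-fold. Secretory markers had -0.21 with 2 of 8 past 2-fold. These were Scgb1a1 at 1.07, which fell short of 2-fold under another scaling, and Muc5ac at -1.33. Of all genes 1.18% were at least 2-fold lower and 0.476% higher, so a count of 0 of 8 is near the share over all genes. Neutrophil markers had a median of -0.55, with 1 of 7 past 2-fold (Ngp at -1.45). After flagellin all 7 were above 0 in wild type, 6 of them past 2-fold, with a median of 1.80. Of all genes 47.9% were below 0 in that response and 0.838% at least 2-fold higher. Under the label Duox2-/- the median response of the neutrophil markers was 0.26. It had 0 of 7 past 2-fold, where 0.221% of all genes were higher and 0.466% lower. Between the PBS arrays all 7 neutrophil markers were higher under the label Duox2-/-, with a median of 0.80. There 2 of 7 were past 2-fold, or 1 under another scaling, against 1.34% of all genes. That response thus started from a higher PBS value, in 1 array. Tmprss11g was also higher in the wild-type flagellin array, and the part of these cells in its value was not tested. Ciliated markers were below 0 between the PBS arrays in 8 of 8, against 43.6% of all genes. Of genes reaching the median of all values, as 7 of these 8 did, 57.7% were below 0. The median of the ciliated markers between the PBS arrays was -0.30. It stood beside -0.27 for the basal markers, -0.21 for secretory and -0.06 for olfactory neuron markers. Skeletal muscle and tooth enamel genes followed another order of arrays. Their mean log2 levels were highest in the PBS array labelled Duox2-/-, at 7.64 and 6.61, where Tmprss11a and Tmprss11g were low. Single genes could differ: Myh4 was highest in wild-type flagellin (7.83) and Odam in flagellin labelled Duox2-/- (5.53). Between the PBS arrays the medians of the muscle and enamel lists were 2.42 and 3.03, opposite in sign to Tmprss11a and Tmprss11g. Between the flagellin arrays they were -0.66 and 0.95. In the flagellin responses the muscle genes had the same signs as Tmprss11g. Their median was 1.13 in wild type, with 12 of 12 above 0 and 6 at least 2-fold higher, against 0.838% of all genes. In the arrays labelled Duox2-/- it was -1.94, with 12 of 12 below 0 and 8 at least 2-fold lower, against 0.466% of all genes. The part of muscle in the Tmprss11g value was not tested.

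**Figure D4:**
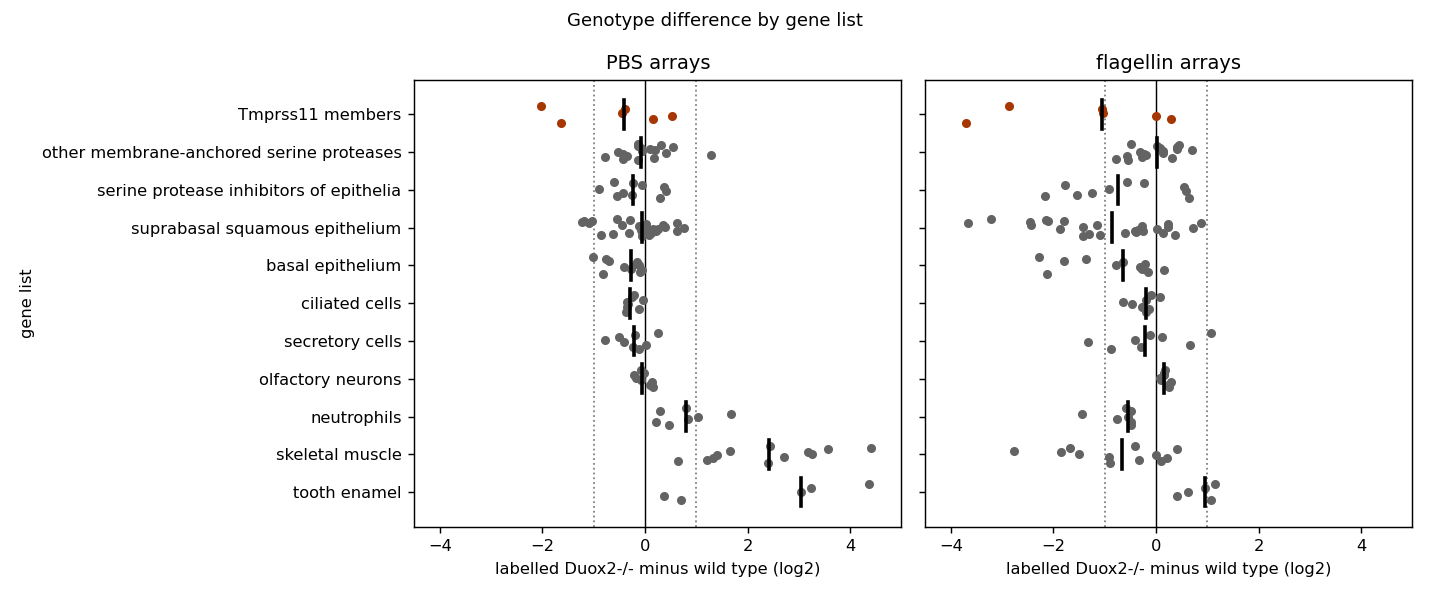
Genotype difference (array labelled Duox2-/- minus wild type, log2, horizontal axis) by gene list in the PBS and flagellin arrays; points are genes and thick lines are medians. In the flagellin arrays the medians of the Tmprss11 genes (-1.05) and of the suprabasal (-0.86) and basal (-0.64) lists lie below 0. So do those of protease inhibitors (-0.75), skeletal muscle (-0.66), neutrophils (-0.55), secretory cells (-0.21) and ciliated cells (-0.19). Those of tooth enamel (0.95), olfactory neurons (0.16) and the other proteases (0.01) lie above it.

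Other genes of the same biochemistry were read beside the members. Among 17 further membrane-anchored serine proteases, such as Tmprss2, St14 (matriptase) and Prss8 (prostasin), 0 were past 2-fold between the flagellin arrays, with a median of 0.01 (-0.12 to 0.01 over the scalings) and a range of -0.77 to 0.70. Between the PBS arrays 1 of 17 was, Corin at 1.29, a protease that activates natriuretic peptide, and the median was -0.08. In the wild-type response 0 of 17 were past 2-fold, and the median was 0.00. At most 1.34% of all genes were past 2-fold in a given direction of these comparisons. Counts of 0 of 17 are near that share.

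Among inhibitors of serine proteases, 4 of 10 were at least 2-fold lower in the flagellin array labelled Duox2-/- and 0 higher. Of all genes 1.18% were lower and 0.476% higher. The inhibitor median was -0.75. Serpinb5, which encodes maspin, had log2 values of 6.15, 6.61, 5.61 and 4.45 in the order of arrays used above and a difference of -2.17. Spink5, which encodes the kallikrein inhibitor LEKTI, had 6.63, 7.66, 6.58 and 5.89 and a difference of -1.78. Like Tmprss11g, both were highest in wild-type flagellin and lowest in flagellin labelled Duox2-/-. Serpinb2, an inhibitor of plasminogen activators, was at -1.54 and Serpinb1a, an inhibitor of neutrophil elastase, at -1.24. In wild type, Spink5 and Serpinb2 were each higher after flagellin by 1.03, just past 2-fold as deposited and short of it under another scaling. In the PBS arrays 0 of 10 passed 2-fold, with a median of -0.24.

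Reported substrates of airway trypsin-like proteases, among them the plasminogen activator Plau, its receptor Plaur, the epithelial sodium channel genes and the fibrinogen chains, showed 0 of 8 past 2-fold in each of the 5 comparisons. At most 1.38% of all genes were past 2-fold in a given direction, so 0 of 8 is near that share. The substrate median between the flagellin arrays was -0.42, and that between the PBS arrays was 0.05.

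The genes whose pattern was most like the 3 brighter members were found by the root mean square difference over the 4 arrays, after subtracting each gene's own mean. Of 12468 candidates, the keratin gene Krt6a was nearest to the mean of Tmprss11a, Tmprss11b and Tmprss11g, at 0.06 on the log2 scale. It was followed by Adh6a, an alcohol dehydrogenase gene, at 0.07, 2210407C18Rik at 0.12, Cytl1 at 0.13, Ucma, a cartilage matrix gene, at 0.15, Krt13 at 0.18, Iigp1, an interferon-inducible GTPase gene, at 0.21 and Ifi202b at 0.26. The median candidate was at 0.98. Krt6a had log2 values of 7.08, 7.86, 5.85 and 5.41 and Krt13 had 6.83, 7.61, 5.64 and 5.51 in the order of arrays used above. Of the members themselves, Tmprss11a was at 0.28 from this mean, Tmprss11g at 0.43 and Tmprss11b at 0.63. Tmprss11d, not used in the mean, was at 0.62, Tmprss11e at 1.13 and Tmprss11f at 1.14. Likeness over 4 arrays is a description and says nothing on how the genes are controlled.

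**Figure D5:**
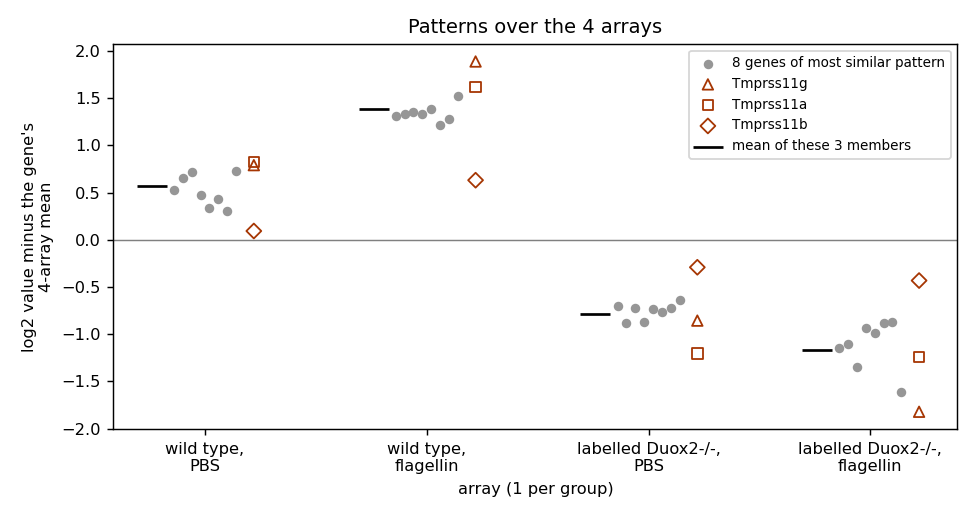
Log2 value minus the gene's own mean over the 4 arrays (vertical axis) for Tmprss11g, Tmprss11a and Tmprss11b, their mean (bars) and the 8 genes of most similar pattern (grey points). The mean lies at 0.57 and 1.38 in the wild-type arrays and at -0.78 and -1.17 in those labelled Duox2-/-. Tmprss11g and Tmprss11a entered it only through wild-type arrays, where they are high.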

How the data were processed

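Total RNA of nasal mucosa was labelled with biotin and hybridised to 4 Affymetrix arrays. Per the submitters' processing notes the authors made the values with RMA in Affymetrix Expression Console 1.1, and the deposited numbers, which run from 1.43 to 13.7, are log2 values. No source used here gives the genome build of the probe sets. No further normalisation was applied.

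Of 35556 probe sets, 21789 were paired with 1 gene, 1621 with several and 12146 with no listed gene. The brightest probe set of 1 gene by its mean over the arrays gave 19938 genes, of which 12471 reached 6.52 in at least 1 array. Differences are array values subtracted on the log2 scale, counted at 2-fold, with no test, since each group has 1 array.

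The members and lists were chosen with earlier results of these data known. There were 4 gene lists and 8 marker lists, and of 126 memberships 4 were not matched and are not reported here. Named are the members, Duox2, up to 4 genes past 2-fold per list by size, the genes flanking the cluster, and the 8 most similar in pattern. Further genes named for a count or to say what a list holds (Krt16, Tmprss2, St14, Prss8, Plau, Plaur) were chosen after their values were seen. Alternatives were 3 scalings, the mean of a gene's probe sets, another size and a brightness filter, and after seeing the data other memberships. Cyclic loess came from limma 3.58.1 (R 4.3.3), the other steps from pandas 2.3.3 and numpy 2.4.6 under Python 3.11.15, and figures from matplotlib 3.10.9. The steps were tested on simulated data.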

Additional observations from a re-analysis of the deposited data

Results flagged for a closer look

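For 4 of the 6 Tmprss11 genes the responses to flagellin had opposite signs under the 2 genotype labels, and for 3 to 5 of 6 over the scalings tried, with Tmprss11a, Tmprss11b and Tmprss11g among them each time. The share of all genes with opposite signs was not counted, so this count is no result about the members. Of all genes, 47.9% were below 0 in the wild-type response and 51.2% in that of the arrays labelled Duox2-/-. Only Tmprss11g was past 1.5-fold in both responses, and Tmprss11a and Tmprss11f each had 1 response close to 0. With 1 array in each group none of these differences was tested. The difference of responses, wild type minus the arrays labelled Duox2-/-, was 2.06 on the log2 scale for Tmprss11g (1.10 and -0.97), 0.83 for Tmprss11a (0.80 and -0.04), 0.68 for Tmprss11b (0.54 and -0.14) and -0.13 for the dim Tmprss11f (0.00 and 0.12). The member median differed by 0.63.

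Medians of 6 of the lists also had responses of opposite sign, with differences of 3.23 for skeletal muscle, 0.65 for suprabasal squamous epithelium, 0.24 for substrates of airway trypsin-like proteases, 0.021 for protease inhibitors, -0.14 for the other membrane-anchored proteases and -0.22 for secretory cells. Protease inhibitors lost the opposite signs after median centring and secretory cells after quantile normalisation. The median of differences and the difference of medians need not be the same.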

How the results depend on the processing

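No paired analysis was possible because each group has 1 array and the result comes from no test. Of 195 values recomputed under the alternatives, 188 moved by less than the robust SD of that comparison over all genes (for counts, stayed within 1.5 times) and 0 reversed a value past 2-fold. This includes all 120 values of single members under median centring, quantile normalisation, cyclic loess and the mean of probe sets, the last of which changes nothing here because each member has 1 probe set. The largest move of a member value was 0.30. Cyclic loess gave 1 member past 2-fold in the response of the arrays labelled Duox2-/-, against 0. With 1.5-fold as the size, 4 members were higher in the wild-type response, where 2.66% of all genes were, 1 was lower in that of the arrays labelled Duox2-/- (2.63% of genes) and 4 were above 0 in the difference of responses (5.52%). Over the 3 members reaching 6.52 the median was 0.80 in the wild-type response, -1.65 for the genotype difference under PBS and -2.86 for that under flagellin. This filter passes Tmprss11a and Tmprss11g only through wild-type arrays, where they are high, so these medians lean towards larger genotype differences and support nothing. Leaving out Tmprss11b or adding Tmprss11c, both chosen after seeing the data, moved no median or count past these limits.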
